A study of Mus musculus with 4 samples.

Results

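Signals of 9 extracellular matrix genes were followed in mouse peritoneal macrophages after overnight culture with the cytokine transforming growth factor beta 2 (abbreviated TGFb2) or PBS. The genes were Bgn, Dcn, Eln, Fbln2, Sparc, Tnc, Ccn2, Tgfbi and Scx, and they were represented by every probe set whose gene symbol in the platform annotation was exactly that name. This gave 13 of the 12422 non-control probe sets, with 2 probe sets each for Bgn, Eln, Tnc and Tgfbi and 1 for each of the other 5 genes. The members had been chosen with the difference between TGFb2 and PBS arrays known, so their differences are given as a description, with no test. Affymetrix arrays were hybridised with biotin-labelled cRNA from 2 TGFb2 samples and 2 PBS samples.

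The TGFb2 group had received porcine TGFb2 (5 ng, with no volume in the labels) in serum-free medium, and the PBS group the vehicle alone in the same medium. All cells came from female BALB/c mice aged 6 to 8 weeks, and every group shared the same elicitation, 2 ml of 3% thioglycolate injected into the peritoneum 4 days before collection. Thioglycolate is an irritant that recruits monocyte-derived macrophages. RNA was taken from adherent cells, over 95% of which carried the macrophage marker F4/80 according to the labels, so a minor share of other adherent cells was possible. The labels do not say whether replicates were separate cultures or animals, or whether animals were pooled, so spreads and p-values cover differences between arrays that may be technical. In such a mixed preparation, fewer cells of a type and less RNA per cell cannot be told apart.

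All 10 macrophage markers, among them Adgre1, which encodes F4/80 itself, Csf1r, Cd68 and Lyz2, had signals above the filter on dim probe sets. That filter lay at a signal of about 24.0. The 4 arrays had equal trimmed means of 150.1 after the authors' scaling, and log2 signals correlated across probe sets at 0.979 between the PBS arrays and 0.968 between the TGFb2 arrays.

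Small leucine-rich proteoglycans such as biglycan and decorin are secreted core proteins with glycosaminoglycan chains. They bind collagen fibrils and can bind TGF-beta, and biglycan released from the matrix is also a ligand of Toll-like receptors on macrophages. Elastic fibres consist of crosslinked elastin on a scaffold of microfibrils to which fibulins attach. Matricellular proteins such as SPARC, tenascin C and CCN2 are secreted into the matrix and influence cell adhesion and growth factor action rather than bearing load. In fibroblasts TGF-beta is a well-known inducer of many of these genes through SMAD transcription factors.

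The promoter windows of 3 members that were higher on the TGFb2 arrays are shown because they are the sequence on which SMAD proteins or other factors could act near the start site. Each runs from 250 bases before to 50 after the annotated start, 5′ to 3′ on the strand of the gene, from RefSeq on GRCm38.p6. Capitals mark matches to the SMAD core CAGAC or to the E-box CAGATG, on either strand.
Bgn (chrX:73483351-73483650, plus strand): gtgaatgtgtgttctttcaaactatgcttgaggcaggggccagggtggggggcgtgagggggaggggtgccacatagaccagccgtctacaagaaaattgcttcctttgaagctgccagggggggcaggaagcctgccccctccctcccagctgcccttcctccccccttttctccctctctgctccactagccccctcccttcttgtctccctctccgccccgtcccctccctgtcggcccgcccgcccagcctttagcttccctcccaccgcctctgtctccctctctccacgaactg
Sparc (chr11:55420031-55420330, minus strand): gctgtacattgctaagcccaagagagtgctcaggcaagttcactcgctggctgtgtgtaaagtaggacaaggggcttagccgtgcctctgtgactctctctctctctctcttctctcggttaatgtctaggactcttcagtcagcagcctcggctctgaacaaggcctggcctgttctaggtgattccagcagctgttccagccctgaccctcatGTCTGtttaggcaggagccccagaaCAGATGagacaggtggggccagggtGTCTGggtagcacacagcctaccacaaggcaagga
Tgfbi (chr13:56609336-56609635, plus strand): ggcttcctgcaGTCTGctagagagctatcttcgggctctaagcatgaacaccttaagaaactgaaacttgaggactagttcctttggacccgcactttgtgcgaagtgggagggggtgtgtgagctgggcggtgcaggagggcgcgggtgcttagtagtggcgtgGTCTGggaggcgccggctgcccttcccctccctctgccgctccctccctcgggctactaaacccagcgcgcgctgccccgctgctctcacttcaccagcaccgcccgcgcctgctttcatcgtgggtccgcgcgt

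A window was found for 5 of the 9 genes, and Tnc had 2 overlapping windows. Dcn, Eln, Ccn2 and Scx had no window in the table used here. The SMAD core CAGAC occurred in windows of Sparc, Tgfbi and Tnc and not in those of Bgn or Fbln2, and 49.6% of all 32851 windows held it. In Sparc it lay at -35 to -31 and at 16 to 20 relative to the start, and in Tgfbi at -239 to -235 and at -85 to -81. The E-box CAGATG, a sequence bound by the helix-loop-helix factor scleraxis with its partners, occurred at -10 to -5 in Sparc and at -161 to -156 in Fbln2, and 17.2% of all windows held it. The Fbln2 window (chr6:91212514-91212813) lies downstream of the annotated gene start at 91212460, so its own start is inside the gene. The SMAD palindrome GTCTAGAC, the CAGA box AGCCAGACA and the AP-1 motif TGANTCA occurred in none of the 6 member windows, against 0.213%, 0.387% and 7.81% of all windows. The TATA box TATAAA occurred only in Tnc among these 6 windows, against 13.6% of all windows. All motifs were sought on both strands, and no matches in the member windows overlapped each other except where the Tnc windows share bases. A match describes the letters of the window and does not show binding.

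**Figure D1:**
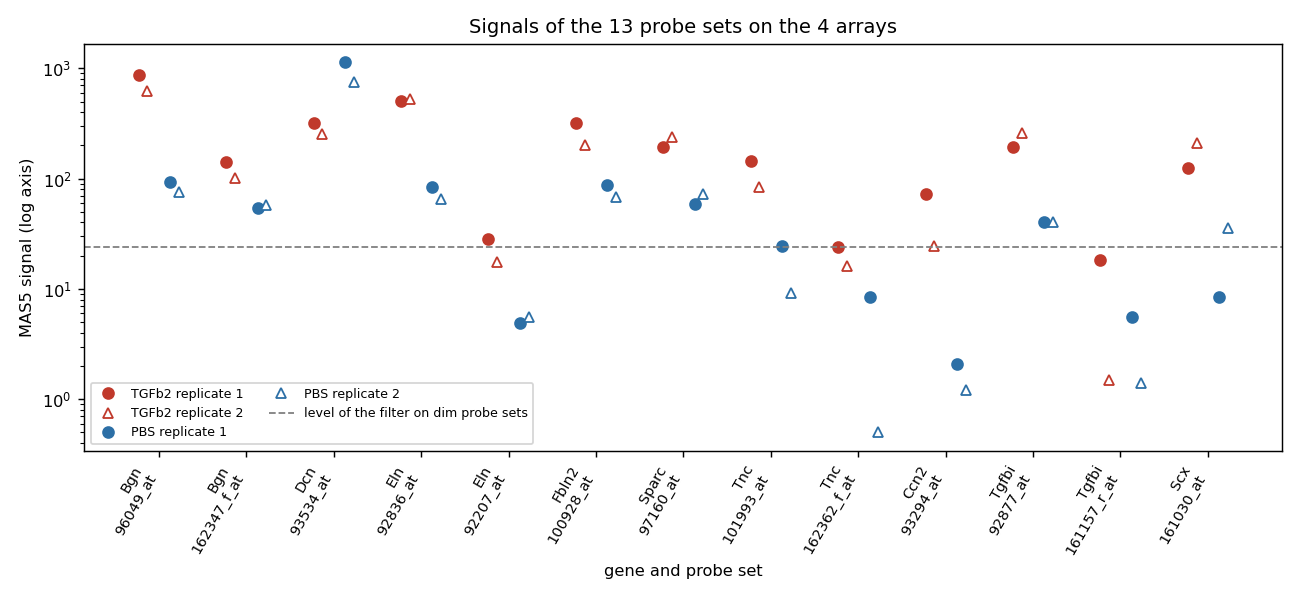
MAS5 signal of each of the 13 probe sets (x axis) on a log axis (y axis), with TGFb2 arrays in red to the left of PBS arrays in blue, circles for replicate 1 and triangles for replicate 2. Both TGFb2 points lie above both PBS points for 11 probe sets, below them for Dcn, and among them for Tgfbi 161157_r_at.

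Signals on both TGFb2 arrays were above both PBS signals for 11 of the 13 probe sets, below them for Dcn, and overlapped for 1 dim probe set of Tgfbi. Among all non-control probe sets, 21.4% were higher and 17.5% lower without overlap. Since the members were chosen on this contrast, nothing is read from their count. Of the 13, 9 passed the filter on dim probe sets. Tnc and Scx passed it only through their TGFb2 signals, because their PBS means lay below the filter level. The 4 others were the dimmer probe sets of Eln, Tnc and Tgfbi and the only probe set of Ccn2.

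Biglycan (Bgn, probe set 96049_at) had signals of 876 and 621 on the TGFb2 arrays, against 93.5 and 75.8 on the PBS arrays. The groups were far apart, and the lower TGFb2 signal was 6.64 times the higher PBS signal. Means were 748 ± 180.1 with TGFb2 and 84.7 ± 12.5 with PBS (SD, n = 2 each, as below), 8.84-fold apart, with a difference of 2.92 ± 0.21 (SE) on the log2(signal + 15) scale. Ranked by that difference, it was number 2 from the top of the 7453 tested probe sets.

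The other Bgn probe set, 162347_f_at, had signals of 140.4 and 101.2 with TGFb2, against 53.7 and 57.5 with PBS. It ran in the same direction without overlap, but its log2 difference of 0.93 ± 0.21 (SE) and its ratio of means of 2.17 were smaller. The suffix _f_at marks probe sets whose probes can also match related sequences, and whether this bears on the gap between the probe sets was not tested.

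Decorin (Dcn, 93534_at), the closest relative of biglycan among the members, had signals of 319 and 257 with TGFb2, against 1130.5 and 747 with PBS. Both TGFb2 arrays were lower than both PBS arrays, and the higher TGFb2 signal was 0.427 times the lower PBS signal. Means were 288 ± 44.0 with TGFb2 and 939 ± 271 with PBS, a log2 difference of -1.63 ± 0.22 (SE), number 9 from the bottom of all tested probe sets. Decorin was the only member whose difference was negative.

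The replicates of these proteoglycan probe sets also differed among themselves. Decorin on PBS replicate 1 was 1.51 times its signal on PBS replicate 2, the widest gap between PBS arrays among the members with PBS means at or above the filter level. Bgn 96049_at differed 1.41-fold between the TGFb2 arrays and 1.23-fold between the PBS arrays. The log2 difference of decorin was -1.34 without PBS replicate 1 and -1.93 without PBS replicate 2, and that of Bgn 96049_at lay between 2.47 and 3.17 over 9 alternatives.

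Elastin (Eln, 92836_at), the rubber-like core protein of elastic fibres, had signals of 510.3 and 525 with TGFb2, against 83.8 and 65.4 with PBS. The TGFb2 arrays agreed to within 1.03-fold of each other and both were over 6 times the higher PBS signal. Means were 518 ± 10.7 with TGFb2 and 74.6 ± 13.01 with PBS, 6.94-fold apart, a log2 difference of 2.58 ± 0.18 (SE). A dim Eln probe set, 92207_at, had signals of 28.6 and 17.7 with TGFb2, against 4.9 and 5.6 with PBS. It did not overlap between the groups and ran in the same direction, with a log2 difference of 0.90, which became 0.35 with a pseudocount of 60 and 2.1 with none.

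Fibulin 2 (Fbln2, 100928_at), a glycoprotein that binds elastin and microfibrils, had signals of 318 and 201 with TGFb2, against 88.4 and 68.3 with PBS. The TGFb2 arrays were 1.58-fold apart, yet both lay above the PBS arrays. The ratio of means was 3.31 and the log2 difference 1.53 ± 0.25 (SE).

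SPARC (97160_at), a collagen-binding matricellular glycoprotein also known as osteonectin, had signals of 195 and 240.3 with TGFb2, against 58.9 and 72.8 with PBS. The groups did not overlap, and replicates were 1.23-fold apart with TGFb2 and 1.24-fold with PBS. The ratio of means was 3.31, close to that of fibulin 2, and the log2 difference was 1.52 ± 0.2 (SE).

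Tenascin C (Tnc, 101993_at), a large glycoprotein deposited in wounds and during development, had signals of 143 and 84.1 with TGFb2, against 24.6 and 9.1 with PBS. Both TGFb2 arrays were higher, and the log2 difference of 2.02 ± 0.33 (SE) became 1.16 with a pseudocount of 60 and 2.87 with none. The dimmer Tnc probe set, 162362_f_at, had signals of 24.2 and 16.0 with TGFb2, against 8.5 and 0.5 with PBS. It had the same direction without overlap at signals around or below the filter level.

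CCN2 (93294_at), connective tissue growth factor, is a widely used TGF-beta target gene in fibroblasts. Its signals were 72.8 and 24.4 with TGFb2, against 2.1 and 1.2 with PBS. Both TGFb2 signals were above both PBS signals, but the TGFb2 arrays were 2.98-fold apart and the PBS signals were near the lower end of the arrays' range. Without detection calls such values give no reliable baseline, so no fold is given, and the log2 difference of 1.82 was 0.78 with a pseudocount of 60 and 4.73 with none.

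Tgfbi (92877_at), a secreted integrin-binding protein that takes its name from TGF-beta, had signals of 193 and 262 with TGFb2, against 40.7 on each PBS array. Both TGFb2 arrays were at least 4.73 times the PBS signal. The log2 difference was 2.11 ± 0.21 (SE). The probe set 161157_r_at of the same gene had signals of 18.2 and 1.5 with TGFb2, against 5.6 and 1.4 with PBS. These values overlapped, lay below the filter level, and gave a log2 difference of 0.35 that was -0.16 without TGFb2 replicate 1.

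Scleraxis (Scx, 161030_at), a helix-loop-helix transcription factor of tendon and ligament progenitors, had signals of 126 and 210.4 with TGFb2, against 8.4 and 36.0 with PBS. Both TGFb2 arrays were at least 3.50 times the higher PBS signal, although the PBS arrays were 4.29-fold apart. The log2 difference was 2.37 ± 0.39 (SE), the least precise of the 9 tested members, and 1.47 with a pseudocount of 60.

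**Figure D2:**
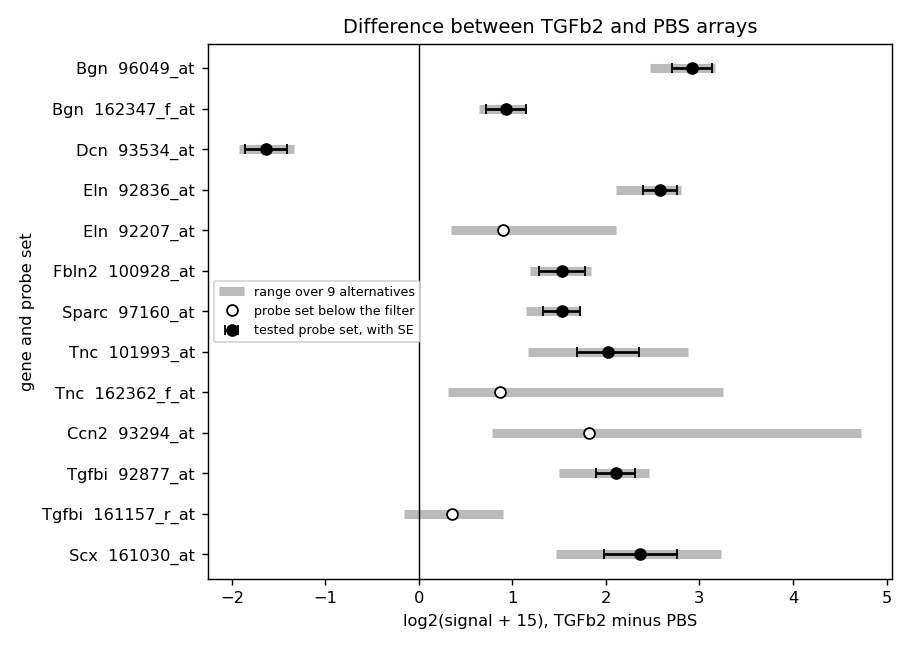
Difference in log2(signal + 15) between TGFb2 and PBS arrays (x axis) for the 13 probe sets (y axis), with filled points and SE bars for the 9 tested probe sets, open points for the 4 below the filter and grey bars for the range over 9 alternatives. Dcn lies at -1.63, the other 12 points lie above 0, and the widest ranges belong to probe sets with dim PBS signals.

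The tested members had a median log2 difference of 2.02, against -0.00082 over all 7453 tested probe sets, where the 5th and 95th percentiles were -0.55 and 0.56. This places the values and is no test, since the members were chosen for them. The median was the value of Tnc 101993_at, which, like Scx, passed the filter only through its TGFb2 signals. The higher members were not uniform between replicates. Replicate 1 exceeded replicate 2 on the TGFb2 arrays for 9 of the 13 probe sets, as it did for 59.2% of all non-control probe sets. Sparc, Scx, Tgfbi 92877_at and Eln 92836_at were higher on TGFb2 replicate 2, whereas Bgn, Fbln2, Tnc and Ccn2 were higher on TGFb2 replicate 1. The median within-group SD was 0.27 on the log2 scale for the tested members and 0.18 for all tested probe sets.

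Profiles over the 4 arrays were compared by the Euclidean distance between log2 signals centred on their own mean, as a description over 4 arrays in 2 groups. The probe set closest to Bgn 96049_at was Col1a1 94305_at, the alpha 1 chain of collagen I, at a distance of 0.29. Its signals were 495 and 415 with TGFb2, against 58.0 and 54.0 with PBS. Cdo1, a cysteine dioxygenase, Serpinf1, a secreted serpin, and Eln followed at distances of 0.33, 0.39 and 0.51. Cdo1 had signals of 317 and 199 with TGFb2, against 27.3 and 11.3 with PBS. Serpinf1 had 152 and 117 with TGFb2, against 12.6 and 1.2 with PBS. Both passed the filter on dim probe sets only through their TGFb2 signals, so their closeness to Bgn is given as a description. Elastin was the member nearest to biglycan. Fbln2 and Tnc 101993_at, at 0.57, were the next closest pair of members.

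The probe sets closest to Dcn were of the transcriptional repressor Bach1 at a distance of 0.021, the collagen-internalising receptor Mrc2 at 0.27, the deiodinase Dio2 at 0.29 and the chemokine Cxcl1 at 0.42. All 4 had lower signals on both TGFb2 arrays and their higher PBS signal on replicate 1. Bach1 had signals of 10.6 and 6.2 with TGFb2, against 74.0 and 44.5 with PBS, and Mrc2 had 13 and 7.3 with TGFb2, against 62.8 and 38.6 with PBS. The TGFb2 signals of both lay below the filter level, unlike those of decorin.

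**Figure D3:**
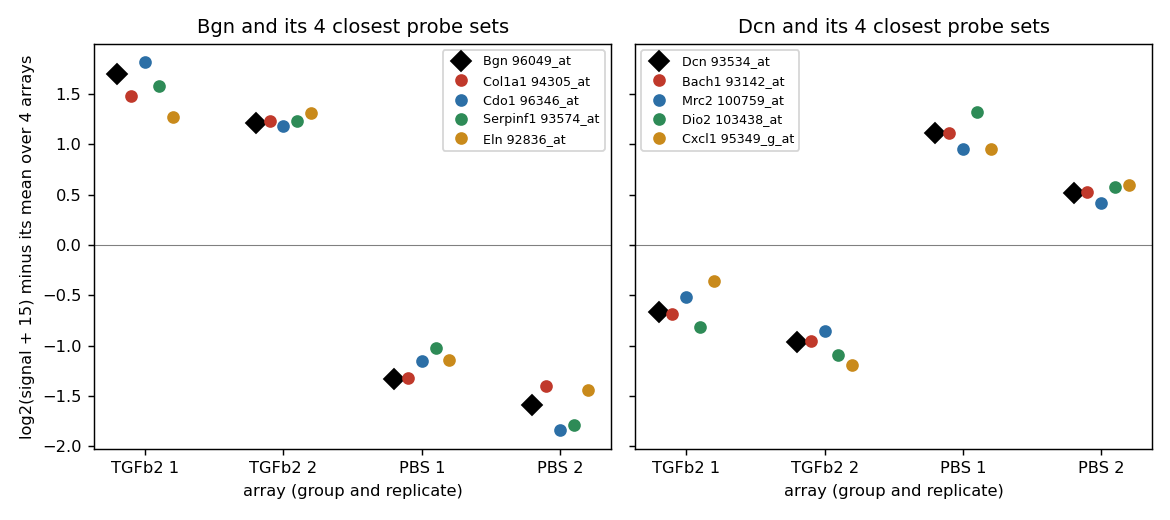
Log2(signal + 15) minus its mean over the 4 arrays (y axis) on each array (x axis, TGFb2 arrays left of PBS arrays) for Bgn and its 4 closest probe sets (left) and Dcn and its 4 closest (right), with diamonds for Bgn and Dcn. The points of the left panel are above 0 with TGFb2 and below 0 with PBS, and those of the right panel are the reverse.

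Other genes of the same pathway were taken from 7 lists that hold no member, and each gene was counted by its brightest tested probe set in limma with an adjusted p of at most 0.05. Of 76 tested genes, 3 rose, 0 fell and 73 were not past the threshold. In the whole set of 5639 tested genes, 0.869% rose and 0.319% fell (61 and 27 of the 7453 probe sets, or 0.818% and 0.362%). The 3 genes were Lox, Mfap5 and Id3, and of these Id3 alone had a PBS mean above the filter level. With 2 arrays per group these calls depended on each array. Without TGFb2 replicate 1 none of the 3 passed in limma (adjusted p = 0.091 to 0.18), and without PBS replicate 1, PBS replicate 2 or TGFb2 replicate 2 only Id3 did.

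In the elastic fibre list 2 of 9 tested genes passed, both upwards. Both passed the filter on dim probe sets only through their TGFb2 signals, as Tnc and Scx did, so the filter was not independent of their differences and the count is given as a description. Lysyl oxidase (Lox), the enzyme that crosslinks elastin and collagen, had signals of 74.9 and 60.8 with TGFb2, against 4.1 and 7.4 with PBS. Its groups were widely separated, with a log2 difference of 2.00 ± 0.28 (SE, limma adjusted p = 0.0263). Microfibril-associated protein 5 (Mfap5) had signals of 81.1 and 56.9 with TGFb2, against 10.6 and 15.5 with PBS, a log2 difference of 1.57 ± 0.27 (SE, limma adjusted p = 0.0470). Their differences ranged from 0.96 to 3.61 for Lox and from 0.81 to 2.41 for Mfap5 over the alternatives. The list's median was 0.46, against 0.0027 over all tested genes, and its other 7 tested genes lay between -0.19 for Ltbp3 and 0.64 for Ltbp2.

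Other proteoglycans did not pass, with 0 of 12 tested in either direction and a median difference of 0.07. Versican (Vcan), a large chondroitin sulfate proteoglycan, had signals of 67.8 and 36.4 with TGFb2, against 10.4 and 8.0 with PBS (limma adjusted p = 0.11). The PBS mean of Vcan lay below the filter level, so its p is given as a description. Lumican (Lum), a leucine-rich relative of decorin, had signals of 32.6 and 24.4 with TGFb2, against 66.6 and 27.4 with PBS, and these overlapped (limma adjusted p = 0.69). Decorin and lumican both had their highest signal on PBS replicate 1.

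Matricellular and adhesive glycoproteins outside the members also did not pass, with 0 of 6 tested and 14 of 20 on the array below the filter. Matrix Gla protein (Mgp), an inhibitor of calcification, had signals of 67.4 and 54.1 with TGFb2, against 7.3 and 18.4 with PBS (limma adjusted p = 0.075). Ccn4, a relative of Ccn2, had signals of 59.3 and 46.3 with TGFb2, against 16.1 and 14.9 with PBS (limma adjusted p = 0.11). Both were higher without overlap but missed the threshold. Both passed the filter on dim probe sets only through their TGFb2 signals, so their p-values are given as a description. The median over this list was 0.19.

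Among receptors and surface partners of the member proteins, 0 of 16 tested passed, with a median of 0.28. The integrin beta 5 chain (Itgb5), part of a receptor for adhesive matrix proteins, had signals of 1074 and 863 with TGFb2, against 530.5 and 424 with PBS. It was higher without overlap and just missed the threshold (log2 difference 1.00 ± 0.18 SE, limma adjusted p = 0.0539). Kdr, a receptor of vascular endothelial growth factor, had signals of 59.3 and 36.5 with TGFb2, against 29.4 and 16.3 with PBS (limma adjusted p = 0.42). The PBS mean of Kdr lay below the filter level, so its p is given as a description.

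Enzymes that build glycosaminoglycan chains, which biglycan and decorin both carry, passed in 0 of 12 cases, with a median of 0.15. Chondroitin polymerising factor (Chpf) had signals of 47.6 and 80.5 with TGFb2, against 22.7 and 21.7 with PBS (limma adjusted p = 0.17). The PBS mean of Chpf lay below the filter level, so its p is given as a description. Papss2, which makes the sulfate donor, had signals of 85.3 and 102.8 with TGFb2, against 58.1 and 71.3 with PBS (limma adjusted p = 0.46). Neither overlapped between the groups, and neither passed.

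Proteases that cleave elastin, proteoglycans or matricellular proteins passed in 0 of 11 cases, with a median of 0.15. The membrane-type metalloproteinase Mmp14 had signals of 458 and 559 with TGFb2, against 270.0 and 355 with PBS (limma adjusted p = 0.20). The serine protease Htra1 had signals of 210 and 135 with TGFb2, against 152 and 86.0 with PBS, and these overlapped (limma adjusted p = 0.59). Macrophage elastase (Mmp12), singled out after its values were seen, had signals of 4225 and 4449 with TGFb2, against 6378 and 5689 with PBS, lower without overlap (log2 difference -0.47 ± 0.11 SE, limma adjusted p = 0.11).

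Helix-loop-helix partners of scleraxis and other tendon transcription factors included 1 gene that rose among 10 tested. Id3, which binds the partners of such factors and keeps them from DNA, had signals of 171 and 119 with TGFb2, against 29.5 and 25 with PBS. Its groups were far apart, with a log2 difference of 1.91 ± 0.23 (SE, limma adjusted p = 0.0203). The E proteins Tcf3, Tcf4 and Tcf12, with which scleraxis pairs, differed by 0.08, -0.20 and -0.23 and did not pass (limma adjusted p = 0.93, 0.8 and 0.70). Id2 had signals of 3499 and 3067 with TGFb2, against 1824 and 2109 with PBS. It was higher without overlap and just missed the threshold (log2 difference 0.74 ± 0.13 SE, limma adjusted p = 0.0539). Id1, below the filter and not tested, had 38.9 and 25 with TGFb2, against 5 and 6.7 with PBS. Egr2 and Tcf4 were lower without overlap. These genes beside Id3 were singled out after their values were seen. The list's median was -0.04.

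**Figure D4:**
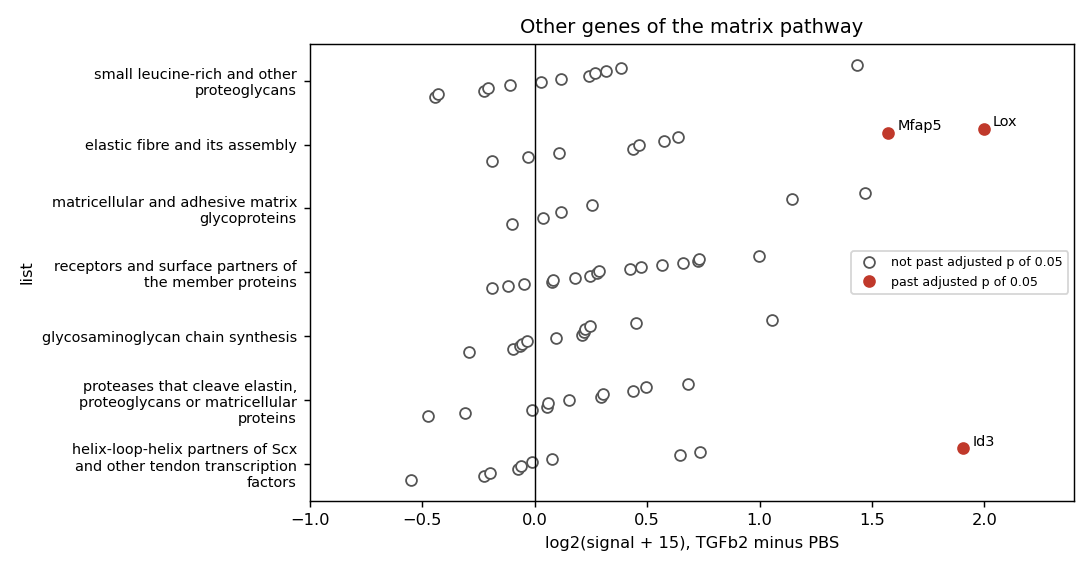
Difference in log2(signal + 15) between TGFb2 and PBS arrays (x axis) for the 76 tested genes of 7 lists (y axis, 1 point per gene by its brightest tested probe set), filled where limma's adjusted p was at most 0.05. The 3 filled points are Lox at 2.0, Id3 at 1.91 and Mfap5 at 1.57.

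Several members are typical products of fibroblasts, so markers of other adherent or elicited cells were measured beside them. Lists for 10 other cell types were used, of which the eosinophil and platelet lists had 0 tested markers. Of the 33 tested markers, 5 rose, 0 fell and 28 did not pass, against 0.869% and 0.319% of all genes. The 5 were Col1a1, Col5a2, Mfap5, Tagln and S100a8, of which Mfap5 is also on the elastic fibre list and Col1a1 was named after its values were seen. Mfap5 passed the filter on dim probe sets only through its TGFb2 signals, so its pass is given as a description. With 2 arrays per group, the number of markers that passed depended strongly on which array was left out.

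Fibroblast markers, of which 13 were on the array and 6 lay below the filter, rose in 3 of 7 tested cases. Mfap5, tested only through its TGFb2 signals, was among the 3. The list summed to 1416 to 1600 with TGFb2, against 878 to 1186 with PBS. Without the 3 that rose the sums were 870.3 to 1030 with TGFb2, against 694 to 987 with PBS, and overlapped. Those 3 were left out for rising in this same contrast, so a shift towards overlap was built in and nothing is read from it. The brightest probe set of Col1a1 had signals of 374 and 370 with TGFb2, against 144 and 142 with PBS (limma adjusted p = 0.0219), and Col5a2, a chain of collagen V, had 115 and 119 with TGFb2, against 44.0 and 26.1 with PBS (limma adjusted p = 0.0436). Collagen I chain Col1a2 (161156_r_at), the brightest of the list, had signals of 480 and 399 with TGFb2, against 376 and 408 with PBS (limma adjusted p = 0.78). Whether its probe set bears on the gap to Col1a1 was not tested. The fibroblast receptor Pdgfra, singled out after its values were seen, had signals of 128 and 62.2 with TGFb2, against 233 and 117 with PBS, which overlapped (limma adjusted p = 0.48). Col1a1 and Col5a2 shared the direction of biglycan and elastin. The point differences of Pdgfra, at -0.78, and Lum, at -0.44, had the sign of decorin, but both genes overlapped between the groups. The difference of Lum ranged from -0.91 to 0.03 over the alternatives, so its sign was not stable. Of the 7 tested markers, 4 were higher and 0 lower without overlap, against 1250 higher and 1221 lower of all 5639 tested genes. Col3a1 was among the 4, at 0.86 (limma adjusted p = 0.44). Pdgfrb and Postn, below the filter, were also higher without overlap, at 0.75 and 0.67. Col3a1, Pdgfrb, Postn and Lum were singled out after their values were seen. The part of fibroblasts in the members' differences was not tested.

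The smooth muscle and pericyte list summed to 468 to 680 with TGFb2, against 391 to 405 with PBS, and 1 of its 4 tested genes rose. That gene was transgelin (Tagln), an actin-binding protein, with signals of 191 and 99.3 with TGFb2, against 35.1 and 15.9 with PBS (limma adjusted p = 0.0470). Without it the sums overlapped, at 369 to 489 with TGFb2, against 356 to 390 with PBS. Tagln was left out because it rose in this same contrast, so nothing is read from that overlap. Actg2, an actin of smooth muscle and the brightest of the list, was lower without overlap, with signals of 174 and 153 with TGFb2, against 175 and 233 with PBS (limma adjusted p = 0.65). Its probe set, 93102_f_at, carries the suffix of probe sets that can also match related sequences. The myosin kinase Mylk, singled out after its values were seen, differed by -0.41 with overlap (limma adjusted p = 0.75). Acta2, also singled out afterwards, had signals of 162 and 151 with TGFb2, against 78.2 and 66.2 with PBS. It was higher without overlap and just missed the threshold (log2 difference 0.98 ± 0.19 SE, limma adjusted p = 0.0586).

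Neutrophil markers summed to 786 to 857 with TGFb2, against 331 to 383 with PBS, and 1 of 3 tested rose. It was the calgranulin S100a8, with signals of 551 and 679 with TGFb2, against 129 and 211 with PBS (limma adjusted p = 0.0241), while 7 of the 10 neutrophil markers, Ly6g among them, lay below the filter. Without S100a8 the list summed to 177 to 235 with TGFb2, against 172 to 202 with PBS, and these overlapped. S100a8 was left out because it rose in this same contrast, so nothing is read from that overlap.

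Mesothelial markers, from cells that line the peritoneum, summed to 297 to 403 with TGFb2, against 324 to 391 with PBS. Their ranges overlapped and 0 of 4 tested passed. Cdh1, a cadherin and the brightest of the list, had signals of 204 and 146 with TGFb2, against 164 and 137 with PBS, which overlapped (limma adjusted p = 0.79). The other markers given here were singled out after their values were seen. Upk3b had signals of 63.4 and 43.2 with TGFb2, against 92.9 and 76.0 with PBS, lower without overlap (log2 difference -0.55 ± 0.23 SE, limma adjusted p = 0.42). Msln, below the filter and not tested, had signals of 8.0 and 3.4 with TGFb2, against 5.0 and 2.9 with PBS.

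Endothelial markers summed to 714 to 778 with TGFb2, against 674 to 796 with PBS, mast cell markers to 403 to 562 with TGFb2, against 409 to 436 with PBS, and B cell markers to 500 to 617 with TGFb2, against 562 to 604 with PBS. None of the 4, 3 and 7 tested genes of these lists passed. Their brightest markers were Eng, Cma1 and Cd22, which differed by -0.09, -0.19 and 0.35 on the log2 scale (limma adjusted p = 0.92, 0.78 and 0.55). Platelet, eosinophil and T or NK cell lists, with Gp5, Ccr3 and Cd4 as their brightest markers, summed to at most 97.3 on any array. Macrophage markers summed to 17851 to 18286 with TGFb2, against 15946 to 16795 with PBS, without overlap, and 0 of 10 passed. Of these 10, 6 were higher and 2 lower without overlap, against 1250 higher and 1221 lower of all 5639 tested genes.

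**Figure D5:**
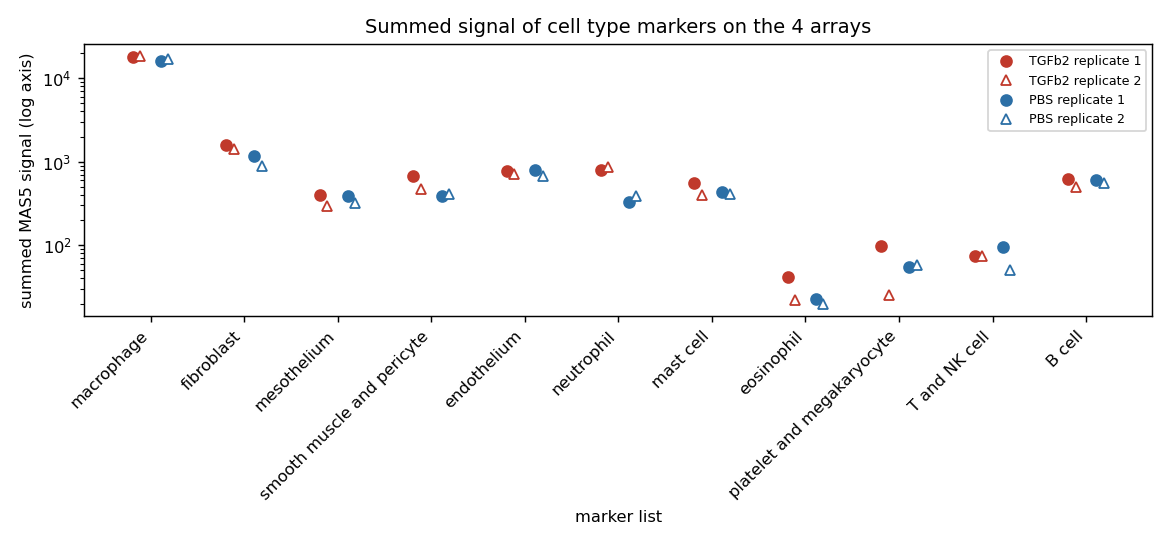
Summed MAS5 signal (log y axis) of the markers of 11 cell types (x axis) on each array, with TGFb2 arrays in red to the left of PBS arrays in blue, circles for replicate 1 and triangles for replicate 2. The fibroblast, smooth muscle, neutrophil and macrophage sums are higher on both TGFb2 arrays, and the mesothelial and endothelial sums overlap between the groups. Without the markers that rose, the fibroblast, smooth muscle and neutrophil sums overlap, but those markers were left out for rising in this same contrast.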

How the data were processed

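Signals were the deposited intensities of the authors, MAS5 values on a linear scale per the submitters' processing notes (no version). Detection calls are not part of the sources used here. The 2% trimmed means were equal, so no scaling was added, and 66 control probe sets were left out. Signals were taken to log2(signal + 15), which understates differences of dim genes. The 7453 probe sets whose mean log2 value reached the 40th percentile were tested in limma 3.58.1 under R 4.3.3 (lmFit and eBayes with intensity trend, TGFb2 minus PBS, two-sided, Benjamini-Hochberg, threshold 0.05). Residual degrees of freedom were 2 and prior ones 5.6, and the code was tested on simulated data. The number of arrays limits the precision. Identical values were shared by 52 to 98 probe sets per pair of arrays, so all 4 arrays were kept. The platform annotation gave 1 symbol to 10833 probe sets, several to 396 and none to 1193.

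The members, lists and tests were chosen with earlier results of these data known. Pathway lists gave up to 2 passing genes per direction, or the 2 with the largest difference, marker lists their passing genes and the brightest, and Bgn and Dcn their 4 closest probe sets. Alternatives covered the pseudocount, normalization, filter, variance model, replicate block, each array left out and, for the lists, any tested probe set of a gene. Some listed genes, Tlr2 and Tlr4 among them, were not analysed here.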

Additional observations from a re-analysis of the deposited data

How the results depend on the processing

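Under another pseudocount or normalization, 33 of 52 member differences moved by less than the within-group SD, 19 moved by more, all 19 with another pseudocount, and 0 changed sign. With 2 arrays per group, leaving an array out or adding the block cannot move a difference beyond that SD and so says nothing of its stability. With 1 array left out, the difference of Tgfbi 161157_r_at changed sign (-0.16 without TGFb2 replicate 1, in a range up to 0.85). Past the threshold, with 88 of all probe sets, 3 listed pathway genes and 5 markers of other cell types as reported, counts were 57, 1 and 2 without a pseudocount and 6, 0 and 0 when dim probe sets were kept. With the filter at the 60th percentile 0 pathway genes and 2 markers passed. Without the intensity trend 16 probe sets, 2 pathway genes and 0 markers passed. With 1 array left out, assuming that the remaining array of its group varied as the opposite group did, counts ran from 11 to 42, from 0 to 1 and from 0 to 4. Quantile and cyclic loess normalization kept all 3 counts within 1.5 times. Where any tested probe set of a gene could count, 4 pathway genes and 6 markers passed, all higher with TGFb2. With the replicate number as a block, which leaves 1 residual degree of freedom, 320 probe sets, 12 pathway genes and 7 markers passed. Deviations of same-numbered arrays correlated at 0.15 over the tested probe sets, and with 2 arrays per group the numbers are not taken to pair them. The causes were not tested, except that fewer genes were tested with the stricter filter.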
